A study of Mus musculus with 4 samples.

Results

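The proteasome genes of the mouse were followed in livers that lack Ubc13 in hepatocytes and in control livers. A gene was a member when its symbol began with Psma, Psmb, Psmc, Psmd, Psme, Psmf or Psmg and a digit, which found 54 of the 56953 rows of the count table. Of these, 48 passed the filter on low counts and were tested. The 5 members known to be induced by interferon, called inducible here, are Psmb8, Psmb9, Psmb10, Psme1 and Psme2, and they were set against the 31 constitutive subunits of the particle.

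The deletion group holds 2 liver libraries of Ubc13 flox/flox mice labelled Alb positive, given the genotype of a hepatic Ubc13 deletion. The control group holds 2 liver libraries of Ubc13 flox/flox mice labelled Alb negative and given as WT, so that both groups carry the loxP-flanked alleles. Alb positive is read here as carrying a Cre recombinase driven by albumin, which is active in hepatocytes and leaves the other liver cells with their Ubc13. All mice were 2 months old and on a normal diet. RNA came from liver by the sample labels, while the library protocol speaks of primary hepatocytes. The labels do not say whether a library is 1 animal or a pool, nor that the replicates are separate animals, so p-values measure only the spread between these libraries. Both pairs of libraries differed by more than counting error (chi-square per degree of freedom 28.0 between the deletion libraries and 42.9 between the controls). Whether that spread is technical or lies between animals is not known from the labels. The deletion libraries also differ in Y-linked transcripts, as given below with the depth. The series asks how loss of UBE2N, the protein of Ubc13, bears on steatohepatitis.

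The 26S proteasome is the protease that destroys proteins tagged with ubiquitin. Its 20S core is a barrel of alpha rings and beta rings, in which the beta subunits Psmb6, Psmb7 and Psmb5 carry the cutting sites. Its 19S cap recognises ubiquitin chains, unfolds the substrate with a ring of ATPases (Psmc genes) and feeds it into the core. Interferon makes cells replace Psmb6, Psmb7 and Psmb5 with Psmb9, Psmb10 and Psmb8 in newly built cores, and such an immunoproteasome yields peptides suited to MHC class I molecules. The PA28 activator, a ring of Psme1 and Psme2, is induced with them. Liver parenchyma normally carries mainly the constitutive form, while leukocytes carry much of the inducible form.

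Libraries were made from 3' ends of transcripts, which makes counts independent of transcript length. Totals ran from 16270424 to 17800138 counts. Ube2n, the targeted gene, had 5.88 and 5.97 CPM (counts scaled to a common library total by the TMM method) in the deletion libraries and 41.3 and 44.9 CPM in the controls. Its log2 fold change was -2.86 ± 0.16 (SE; edgeR adjusted p = 0.00188), in the direction of the labels, read at its 3' end; the flanked exons are not named in the labels. The defining hepatocyte genes were present in every library, with a summed level of 65404 and 61032 CPM in the deletion libraries and 156005 and 152149 CPM in the controls. The groups also differed in sex-linked transcripts. The Y-linked markers Eif2s3y, Kdm5d, Ddx3y and Uty summed to 0 and 90.3 CPM in deletion replicates 1 and 2 and to 143 and 152 CPM in the controls, while Xist had 527 and 200.5 CPM in the deletion libraries and 0.555 and 0.137 CPM in the controls. Deletion replicate 2 held both Y-linked and Xist transcripts, and genotype and the sex make-up of the libraries cannot be told apart fully.

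All 3 catalytic immunosubunits rose in the deletion livers, and 0 of the 31 constitutive subunits passed the test (edgeR quasi-likelihood). Psmb9, Psmb8 and Psmb10 were 3.86-fold, 3.33-fold and 1.84-fold higher, beside a median of 1.01-fold for the constitutive subunits. With a covariate for male RNA, in which the groups differ, all 3 calls were lost (adjusted p = 0.102 for Psmb9, 0.192 for Psmb8 and 0.317 for Psmb10), at log2 fold changes of 1.91, 1.92 and 1.04. That fit leaves fewer residual degrees of freedom and called 65 genes in all. Of 48 members tested, 3 rose and 0 fell (6.25%). Of all 14600 tested genes, 959 had an adjusted p below 0.05 (6.57%), 644 of them higher (4.41%) and 315 lower (2.16%). The count of members called is thus close to the share among all genes, and its 3 genes are the 3 immunosubunits. In bulk liver, more cells of a type and more transcript per cell cannot be told apart.

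**Figure D1:**
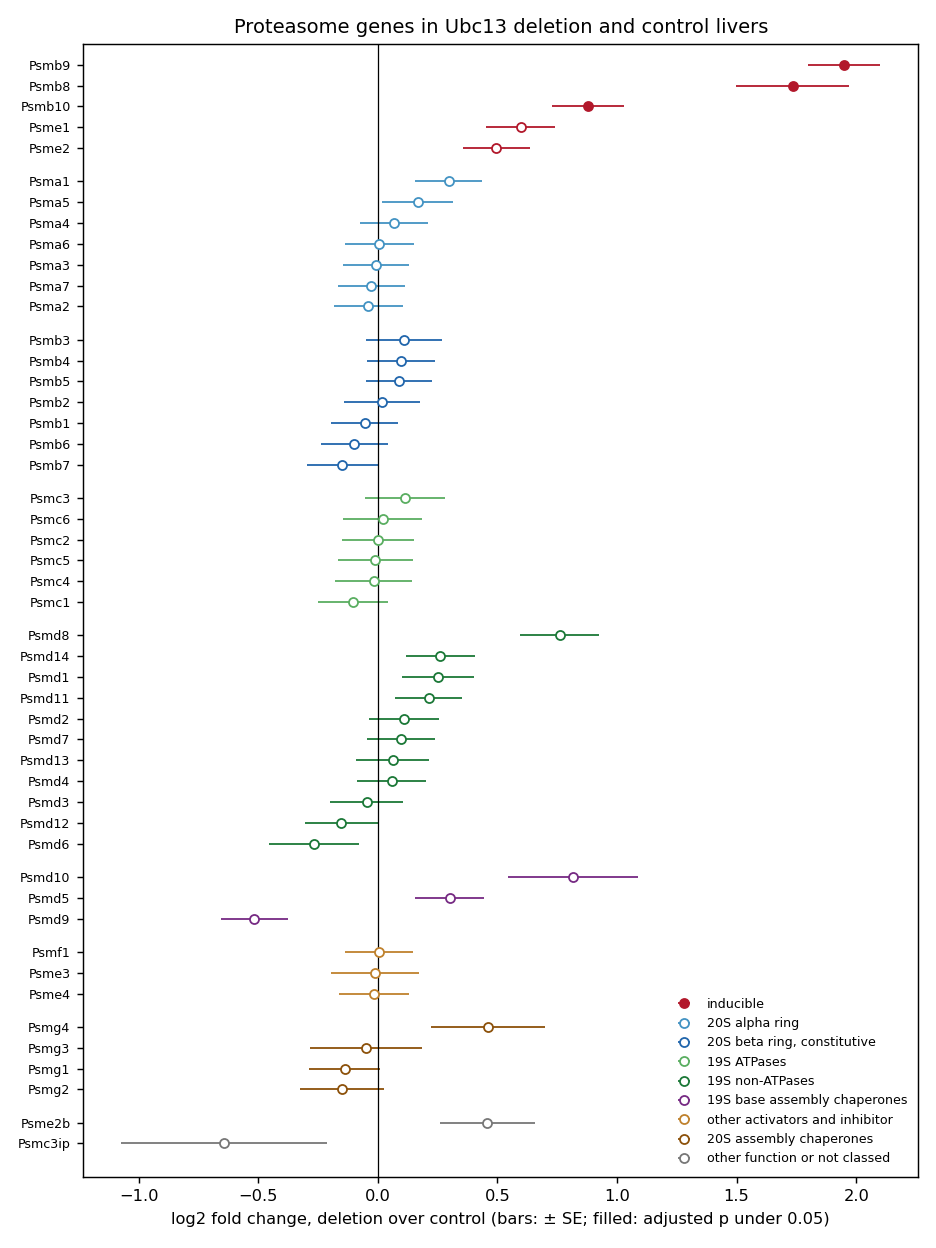
Log2 fold change (deletion over control, horizontal axis) of the 48 tested members, grouped by their role, with bars of ± SE and filled points for an adjusted p under 0.05. The 3 filled points are Psmb9, Psmb8 and Psmb10, and 30 of the 31 constitutive subunits lie between -0.27 and 0.30.

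Psmb9, Psmb8 and Psmb10 are shown first by the DNA before their start sites, since these are the members that rose. The windows run from 250 bases before to 50 bases after the start site in RefSeq (GRCm38.p6) and are given 5' to 3' on the strand of the gene. Psmb9 lies at chr17:34187281-34187580 on the minus strand, Psmb8 at chr17:34197945-34198244 on the plus strand, and Psmb10 at chr8:105938343-105938642 on the minus strand. Psme1, the member with a match to another element, lies at chr14:55578244-55578543 on the plus strand. Capitals mark a match to the gamma-activated site in Psmb8 (GAS, an element of interferon gamma responses, searched as TTCNNNGAA) or to the interferon-stimulated response element in Psme1 (ISRE, an element bound by IRF factors, searched as GAAANNGAA), both on both strands.
Psmb9: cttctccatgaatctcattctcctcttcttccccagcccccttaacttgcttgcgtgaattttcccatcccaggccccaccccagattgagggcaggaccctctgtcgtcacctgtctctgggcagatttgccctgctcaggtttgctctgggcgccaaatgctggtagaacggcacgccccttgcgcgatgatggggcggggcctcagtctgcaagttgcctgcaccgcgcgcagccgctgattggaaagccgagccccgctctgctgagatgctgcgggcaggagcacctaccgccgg
Psmb8: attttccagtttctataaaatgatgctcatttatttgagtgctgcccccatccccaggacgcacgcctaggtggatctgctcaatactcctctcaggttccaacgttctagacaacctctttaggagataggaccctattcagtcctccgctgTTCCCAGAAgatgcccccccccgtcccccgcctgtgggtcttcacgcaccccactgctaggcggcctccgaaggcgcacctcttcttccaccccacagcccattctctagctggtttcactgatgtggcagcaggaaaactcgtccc
Psmb10: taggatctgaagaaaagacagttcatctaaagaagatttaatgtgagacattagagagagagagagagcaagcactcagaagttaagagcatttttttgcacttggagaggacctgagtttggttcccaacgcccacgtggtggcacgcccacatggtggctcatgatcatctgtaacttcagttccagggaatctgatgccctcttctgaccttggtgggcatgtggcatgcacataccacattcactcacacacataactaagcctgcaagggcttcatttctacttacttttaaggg
Psme1: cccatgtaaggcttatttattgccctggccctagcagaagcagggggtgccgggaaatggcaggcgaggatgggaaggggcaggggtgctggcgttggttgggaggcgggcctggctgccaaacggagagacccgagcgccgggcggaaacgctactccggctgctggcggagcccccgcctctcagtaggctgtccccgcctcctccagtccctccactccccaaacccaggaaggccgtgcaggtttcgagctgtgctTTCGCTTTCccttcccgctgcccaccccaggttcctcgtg

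In the Psmb8 window the match TTCCCAGAA ran from -97 to -89 relative to the start site, and the windows of Psmb9 and Psmb10 held no GAS match. The ISRE core matched in 1 of the 5 inducible genes. This was Psme1, with TTCGCTTTC from 11 to 19 bases after the start site, a match on the minus strand. Windows were at hand for 42 members, among them 25 constitutive genes, of which 4 held an ISRE match and 1 a GAS match. Of all 32851 RefSeq windows of 300 bases, 8.56% held an ISRE match and 8.30% a GAS match. The antioxidant response element that NRF1 and NRF2 bind (TGACNNNGC, 12.4% of all windows) matched in 0 inducible and 4 constitutive genes, and the kappaB consensus of NF-kB (8.46% of all windows) in 0 and 5. A match is a description of letters, and its absence covers only the window searched.

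Psmb9, the beta1i subunit that takes the place of Psmb6, had 57.4 and 56.5 CPM in the deletion libraries, against 15.6 and 13.9 CPM in the controls. The deletion libraries lay close together and far above both controls. Its log2 fold change was 1.95 ± 0.15 (95% interval 1.58 to 2.32; edgeR adjusted p = 0.00401), higher in 2 of 2 deletion libraries, and it ranked 41 of 14600 genes by p-value. The gene (ENSMUSG00000096727) lies on chromosome 17 from 34181987 to 34187764 on the minus strand (GENCODE M21, GRCm38). Psmb9 kept its call with any 1 library left out (adjusted p from 3.15e-05 to 0.0133) and lost it with the covariate for male RNA (0.102).

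Psmb8, the beta5i subunit that takes the place of Psmb5, had 61.6 and 66.3 CPM in the deletion libraries, against 14.99 and 23.5 CPM in the controls. The groups did not overlap, and control replicate 2 stood above control replicate 1. The log2 fold change was 1.73 ± 0.24 (95% interval 1.16 to 2.31; adjusted p = 0.0146). Without deletion replicate 2 the call was lost (adjusted p = 0.0519) at a log2 fold change of 1.68, as it was with the covariate (0.192). Psmb8 (ENSMUSG00000024338) is annotated at 34197721 to 34201454 of chromosome 17, plus strand, in the MHC class II region near Psmb9.

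Psmb10, the beta2i subunit that takes the place of Psmb7, had 70.1 and 76.7 CPM in the deletion libraries, against 37.8 and 42.0 CPM in the controls. The groups did not overlap, and the change was the smallest of the 3 immunosubunits. Its log2 fold change was 0.88 ± 0.15 (95% interval 0.51 to 1.24; adjusted p = 0.0273). The call was lost without deletion replicate 1 (adjusted p = 0.0762), without deletion replicate 2 (0.145), with a replicate block (0.0710) and with the covariate (0.317). Psmb10 (ENSMUSG00000031897) lies outside the MHC, on chromosome 8 from 105935735 to 105938444 on the minus strand. The difference in size between the 3 immunosubunits was not tested, and the intervals of Psmb8 and Psmb10 overlap.

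The PA28 genes were higher in both deletion libraries but did not pass. Psme1, PA28 alpha, had 125 and 135 CPM in the deletion libraries, against 83.5 and 88.5 CPM in the controls. Its log2 fold change was 0.60 ± 0.14 (95% interval 0.25 to 0.95; adjusted p = 0.0663). Psme2, PA28 beta, had 72.9 and 77.3 CPM in the deletion libraries, against 53.4 and 53.2 CPM in the controls (0.49 ± 0.14, 95% interval 0.15 to 0.84; adjusted p = 0.0970). The groups overlapped for neither gene, nor for 56.0% of all tested genes, and the pair sits together on chromosome 14, Psme1 from 55578123 to 55581529 and Psme2 from 55587441 to 55591113. Of 11 alternative settings, Psme1 passed in 3 and Psme2 in 1. Psme1 passed with DESeq2 (adjusted p = 0.0271), without the filter on low counts (0.0254) and with library sizes alone (0.0195). Psme2 passed with library sizes alone (0.0265). With a replicate block the adjusted p was 0.139 for Psme1 and 0.203 for Psme2. With the covariate for male RNA it was 0.498 and 0.606, at log2 fold changes of 0.72 and 0.59.

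Single values of Psme2 are uncertain, because its 3' end is shared. Of the distinct windows of 75 bases, the read length, in the last 400 bases of its coding transcripts, 54.2% also occur in Psme2b, a copy on chromosome 11 that the rule includes. Psme2b had 19.8 and 25.2 CPM in the deletion libraries, against 14.6 and 18.1 CPM in the controls, a log2 fold change of 0.46 ± 0.20 (adjusted p = 0.224). Psmb8, Psmb9 and Psmb10 shared 0 such windows with transcripts of any other annotated gene. Of 50 members checked, 12 shared some, among them the constitutive Psmd1 (70.9%), Psma3 (33.9%), Psma5 (32.2%) and Psmb3 (31.9%). Their single values are uncertain in the same way.

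**Figure D2:**
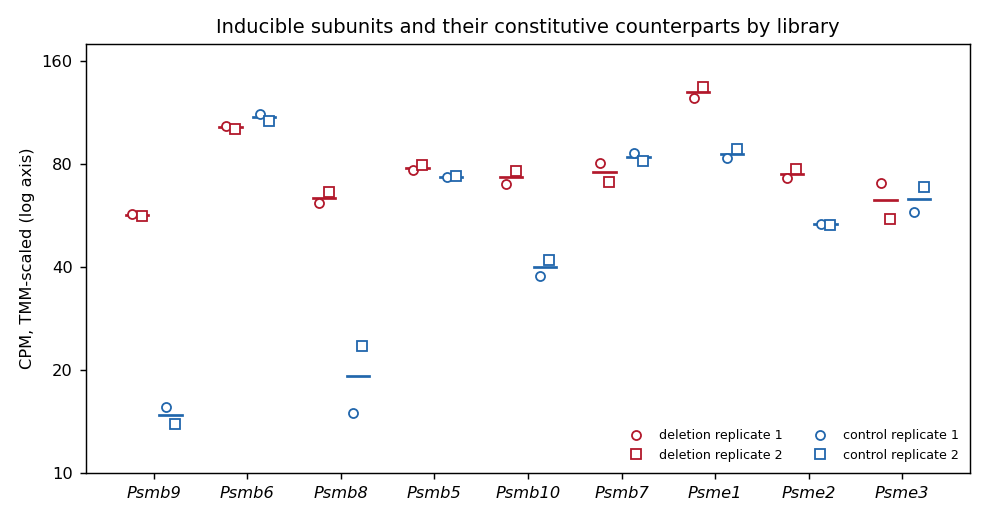
TMM-scaled CPM (log axis) of the 5 inducible members and of the constitutive Psmb6, Psmb5, Psmb7 and Psme3 in each library, with deletion libraries left of controls, circles for replicate 1, squares for replicate 2 and lines at the group mean. The groups overlap for Psme3 and for no other gene shown, and the log2 difference is 0.88 to 1.95 for Psmb10, Psmb8 and Psmb9 and at most 0.15 in size for Psmb6, Psmb5 and Psmb7.

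The constitutive catalytic subunits that the immunosubunits replace did not pass in either direction. Psmb6, the beta1 subunit, had 103 and 102 CPM in the deletion libraries, against 112 and 107 CPM in the controls (log2 fold change -0.10 ± 0.14, 95% interval -0.44 to 0.24; adjusted p = 0.726). Psmb5, the beta5 subunit, had 77.1 and 79.5 CPM in the deletion libraries, against 73.2 and 74.1 CPM in the controls (0.09 ± 0.14, -0.25 to 0.42; adjusted p = 0.754). Psmb7, the beta2 subunit, had 80.7 and 71.0 CPM in the deletion libraries, against 86.4 and 81.8 CPM in the controls (-0.15 ± 0.15, -0.51 to 0.21; adjusted p = 0.601). These intervals leave room for a level up to 1.34-fold the control for Psmb5 and down to 0.701 of the control for Psmb7. Library sizes alone, which moved the median of all genes to 0.29, gave 0.19 for Psmb6 and 0.14 for Psmb7.

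Within a library, the inducible share of each catalytic pair does not depend on scaling. Psmb9 made up 35.7% of the counts of Psmb9 and Psmb6 in both deletion replicates (exact Clopper-Pearson 95% intervals 34.0 to 37.5 and 34.0 to 37.4), against 12.2% (10.8 to 13.7) and 11.4% (9.996 to 13.02) in control replicates 1 and 2. Psmb8 made up 44.4% (42.5 to 46.4) and 45.5% (43.6 to 47.3) of Psmb8 and Psmb5 in the deletion libraries, against 17.0% (15.1 to 19.04) and 24.1% (21.9 to 26.4) in the controls. Psmb10 made up 46.5% (44.6 to 48.4) and 51.9% (50.1 to 53.8) of Psmb10 and Psmb7 in the deletion libraries, against 30.4% (28.4 to 32.5) and 33.9% (31.8 to 36.2) in the controls. In every pair both deletion libraries stood above both controls, by more than the counting intervals.

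The log2 ratio of Psmb9 over Psmb6 was 2.05 higher in the deletion libraries, that of Psmb8 over Psmb5 1.68 higher and that of Psmb10 over Psmb7 1.03 higher. An exact two-sided permutation test gave p = 0.333 for each (0.333 adjusted over the 3 pairs), which is the smallest p that 2 libraries against 2 allow. Only the difference between the groups is read here, since ends of different genes are captured unequally. The intervals of the shares cover counting error only. Of the windows at the 3' end of Psmb5, 48.9% also occur in the annotated copy Gm3375, which had 48 and 73 counts in the deletion libraries, against 49 and 42 in the controls, beside 1403 and 1545, against 1187 and 1079, for Psmb5.

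**Figure D3:**
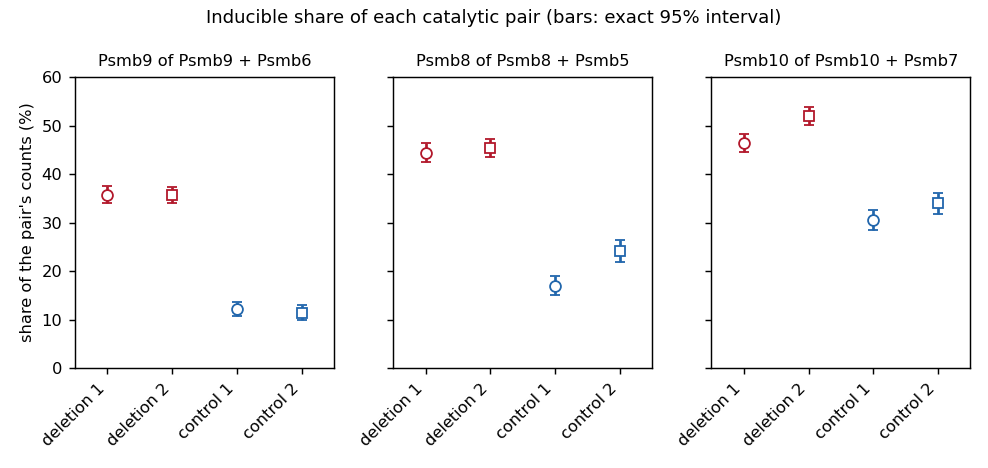
Share of the counts of each catalytic pair that came from the inducible gene (percent), by library, with deletion libraries left of controls and bars for the exact 95% interval of counting error. In all 3 panels both deletion libraries lie above both controls, from 35.7% against 12.2% and 11.4% for Psmb9 to 46.5% and 51.9% against 30.4% and 33.9% for Psmb10.

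By role, 0 constitutive genes of the rings or the cap passed with edgeR, beside 6.57% of all tested genes. The 7 alpha ring genes summed to 612 and 593 CPM in the deletion libraries and to 570.3 and 582 CPM in the controls, and their median log2 fold change was 0.01 (range -0.04 to 0.30). The 7 constitutive beta ring genes summed to 655 and 641 CPM in the deletion libraries and to 656 and 638 CPM in the controls, with a median of 0.02 (range -0.15 to 0.11). The 6 ATPases of the cap summed to 579 and 518 CPM in the deletion libraries and to 511 and 586 CPM in the controls, with a median of -0.01 (range -0.10 to 0.11), and all 6 overlapped between the groups. The 11 other cap subunits summed to 1134 and 1080.2 CPM in the deletion libraries and to 956 and 1022 CPM in the controls, with a median of 0.10 (range -0.27 to 0.76).

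Over the 31 constitutive subunits the median log2 fold change was 0.02, beside -0.0036 over all tested genes, and the SD between subunits was 0.18, beside 0.89 over all tested genes and a median SE of 0.15. Psmd8 alone had an unadjusted edgeR p below 0.05, beside 2038 higher and 1528 lower of all 14600 tested genes. DESeq2 called 1 constitutive subunit and limma-voom 0. The 95% interval held 0 for 30 of the 31 and lay within a 2-fold change for 30. Both deletion libraries were above both controls for 11 subunits (35.5%) and below for 3 (9.68%), beside 28.7% and 27.3% of all tested genes. The median of the deletion libraries relative to the control mean was 0.0955 in replicate 1 and -0.00135 in replicate 2. These directions rest on the scaling: with library sizes alone the median of all genes moved to 0.29 and that of the constitutive subunits to 0.31, so that relative to all genes the subunits stayed at 0.02.

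The highest constitutive value was that of Psmd8, a subunit of the cap's lid (Rpn12). It had 170 and 208 CPM in the deletion libraries, against 109 and 114 CPM in the controls, without overlap. Its log2 fold change of 0.76 ± 0.16 (95% interval 0.36 to 1.16) did not pass by a small margin (edgeR adjusted p = 0.0507). It passed with DESeq2 (0.00392), without the filter on low counts (0.00205), without control replicate 2 (0.0348) and with library sizes alone (0.0192), and it reached 0.268 without deletion replicate 2. Psmd8 was the 1 constitutive subunit whose interval reached the point estimate of Psmb10 (0.88), and 0 intervals reached that of Psmb9. The interval of Psmb10 itself began at 0.51. Intervals of other constitutive subunits overlapped it, among them Psma1 (upper bound 0.64) and Psmd1 (0.62). The lowest values among constitutive subunits belonged to the lid genes Psmd6 (-0.27 ± 0.19, adjusted p = 0.448) and Psmd12 (-0.15 ± 0.15, adjusted p = 0.601), and the groups overlapped for both.

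Among the chaperones that assemble the cap's base, Psmd10 and Psmd9 lay on opposite sides of 0 and neither passed. Psmd10 (gankyrin), an X-linked gene also known as an oncoprotein of liver, had 19.6 and 12.8 CPM in deletion replicates 1 and 2, against 10.4 and 7.97 CPM in the controls. Its log2 fold change was 0.82 ± 0.27 (95% interval 0.15 to 1.48; adjusted p = 0.137). It was 0.47 without deletion replicate 1, the library with 0 CPM of Y-linked genes, and 1.01 without control replicate 1. In a fit with a covariate for male RNA it was 0.06 ± 0.44. The part of sex make-up in the Psmd10 values was not tested. Psmd10 passed without the filter on low counts (adjusted p = 0.00821) and with library sizes alone (0.0486). Psmd9 had 38.7 and 40.9 CPM in the deletion libraries, against 56.1 and 57.9 CPM in the controls, without overlap (-0.52 ± 0.14, 95% interval -0.86 to -0.18; adjusted p = 0.0871). Psmd5, the remaining base chaperone, stood at 0.30 ± 0.14 on the log2 scale (adjusted p = 0.269).

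The other activators and the inhibitor lay near 0. Psme3, the PA28 gamma subunit of nuclei, had 70.4 and 55.3 CPM in the deletion libraries, against 58.2 and 68.6 CPM in the controls, and the groups overlapped (-0.01 ± 0.18, 95% interval -0.46 to 0.43; adjusted p = 0.978). Psme4, the PA200 activator, and Psmf1, the PI31 regulator, had log2 fold changes of -0.01 and 0.01. Of the 4 chaperones that assemble the core, Psmg1 to Psmg4, 0 passed at adjusted p under 0.05, beside 6.57% of all tested genes. Of the 4, 0 had an unadjusted edgeR p below 0.05, beside 2038 higher and 1528 lower of all 14600 tested genes. DESeq2 called 0 of the 4. Their range was -0.15 for Psmg2 to 0.46 for Psmg4, at levels from 5.84 to 22.8 CPM.

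The remaining members are no subunits of the liver particle or were not tested. Psmc3ip, a meiotic recombination factor that the name alone brings in, had 18 and 19 counts in the deletion libraries, against 20 and 27 in the controls (-0.64 ± 0.43, adjusted p = 0.421). The testis subunit Psma8 had 4 and 4 counts in the deletion libraries, against 13 and 8 in the controls, below the filter. The thymus subunit Psmb11 had 0 counts in every library. The pseudogene Psmb6-ps2 had 2 and 1 counts in the deletion libraries, against 2 and 0 in the controls, and Psmb5-ps, Psmb6-ps and Psmb7-ps2 had 0 in all 4. A count of 3 corresponds to 0.169 to 0.184 CPM of the unscaled totals, which was taken as the limit that a count of 0 allows.

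Genes that deliver ubiquitinated substrates, assemble the particle or control its synthesis did not pass either. The list holds 27 symbols, of which 26 were tested, and Paaf1 was not analysed here. In it 0 rose and 0 fell with edgeR, beside 4.41% and 2.16% of all tested genes. At an unadjusted edgeR p under 0.05, 1 was higher and 0 were lower, beside 2038 and 1528 of all 14600 tested genes. DESeq2 called 0, and the median log2 fold change of the list was 0.00. Nfe2l1, the transcription factor NRF1 that raises all proteasome genes when the protease is blocked, had 140 and 126 CPM in the deletion libraries, against 147 and 122 CPM in the controls (-0.01 ± 0.17, adjusted p = 0.977). Pomp, the maturation factor of new cores, stood at 0.07 ± 0.14 (adjusted p = 0.808). The highest value was that of the shuttle Ubqln2 (0.63 ± 0.21, adjusted p = 0.141), and the lowest that of Ddi2, the protease that activates NRF1 (-0.32 ± 0.15, adjusted p = 0.251).

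Genes of peptide transport and interferon control gave calls in 1 direction. Of 17 tested, 5 rose and 0 fell, against 4.41% and 2.16% of all genes, with a median log2 fold change of 0.59. Higher levels at an unadjusted edgeR p below 0.05 were found for 12 and lower ones for 0, beside 2038 and 1528 of all 14600 tested genes. With DESeq2 8 passed, beside 1567 genes in all. The transporter genes Tap1 and Tap2, which carry proteasome peptides into the endoplasmic reticulum, alternate with Psmb9 and Psmb8 on chromosome 17. Tap1 (34187553 to 34197225) begins within the annotated Psmb9 gene on the other strand, and Tap2 (34203527 to 34216321) follows Psmb8. Tap1 had 60.3 and 71.6 CPM in the deletion libraries, against 26.5 and 21.02 CPM in the controls (1.47 ± 0.18, adjusted p = 0.0120). Tap2 had 33.3 and 37.9 CPM in the deletion libraries, against 19.8 and 15.1 CPM in the controls (1.03 ± 0.19, adjusted p = 0.0330). All 4 genes of this stretch were higher in 2 of 2 deletion libraries than in both controls, as were 28.7% of all tested genes.

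The remaining rises were in Tapbp, which tethers MHC class I to the transporter, Nlrc5, a factor that drives class I genes, and Ifngr1, a receptor chain for interferon gamma. On the log2 scale Nlrc5 was higher by 1.28 ± 0.24 (adjusted p = 0.0344), Tapbp by 0.93 ± 0.15 (0.0246) and Ifngr1 by 0.87 ± 0.15 (0.0293). Irf1, a transcription factor induced by interferon, had 54.2 and 32.5 CPM in the deletion libraries, against 20.05 and 16.7 CPM in the controls, and did not pass (1.24 ± 0.27, adjusted p = 0.0513). Without deletion replicate 1, Tap2, Tapbp and Ifngr1 lost their calls (adjusted p = 0.0714, 0.0647 and 0.124), and without deletion replicate 2, Tap2, Tapbp, Nlrc5 and Ifngr1 did (0.155, 0.134, 0.145 and 0.0931). With a replicate block Tap2, Tapbp and Ifngr1 lost them (0.0830, 0.0697 and 0.0830), and with the covariate for male RNA all 5 did (0.135 for Nlrc5 to 0.553 for Ifngr1).

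**Figure D4:**
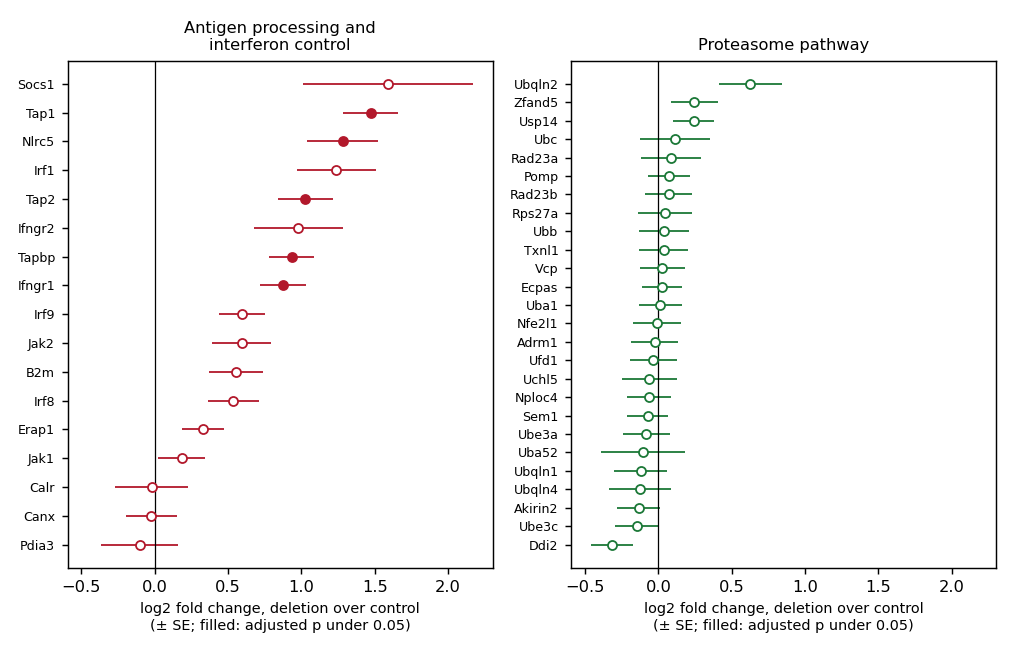
Log2 fold change (deletion over control, horizontal axis) with ± SE of genes outside the particle, left for antigen processing and interferon control and right for the proteasome pathway, with filled points for an adjusted p under 0.05. On the left 5 of 17 points are filled (Tap1, Nlrc5, Tap2, Tapbp and Ifngr1), and on the right 0 of 26.

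Leukocytes carry much immunoproteasome, so their markers are given beside the immunosubunits. The 9 pan-leukocyte markers summed to 231 and 204 CPM in the deletion libraries and to 141 and 154 CPM in the controls, with a ratio of means of 1.47. Of these 9, 0 passed (6 higher at an unadjusted edgeR p under 0.05, as were 2038 of all 14600 tested genes). All 9 were higher without overlap, as were 28.7% of all tested genes. The median fold of the 9 was 1.84, while Lcp1, the most abundant, had a log2 fold change of 0.27. The 8 macrophage markers summed to 1218 and 977 CPM in the deletion libraries and to 352 and 479 CPM in the controls. The ratio of these sums was 2.64, while the median fold of the 8 was 1.52. Of them 2 passed, Cybb and Cd74, with means of 187 and 371 CPM in the deletion group, against 15.2 and 44.3 CPM in the control group. The other 6 had log2 fold changes of 0.46 to 0.75, with Clec4f and Csf1r at 0.62 and 0.59. The 8 markers of T and NK cells summed to 9.12 and 5.51 CPM in the deletion libraries and to 3.70 and 7.63 CPM in the controls, and the 4 B cell markers to 3.24 and 2.06 CPM in the deletion libraries and to 1.85 and 3.30 CPM in the controls, with 0 passing in either list. No defining marker of these lists was at 0 in all libraries. The 3 immunosubunits together summed to 189 and 199 CPM in the deletion libraries and to 68.4 and 79.4 CPM in the controls, a ratio of 2.63. The part of leukocyte RNA in this was not tested.

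All 9 hepatocyte markers were lower in both deletion libraries than in both controls, as were 27.3% of all tested genes. The median of the 9 was 0.506 of the control level, with 8 at an unadjusted edgeR p under 0.05 and 2 past the test, Ttr and Pck1. Of all 14600 tested genes, 1528 were lower at that unadjusted p. Of the ductular markers 2 of 5 rose, Spp1 and Sox9. The 5 ductular markers summed to 1346 and 1937 CPM in the deletion libraries and to 106 and 62.7 CPM in the controls, with Spp1 alone at 1327 and 1916 CPM in the deletion libraries and 50.4 and 52.5 CPM in the controls. Krt7, Krt19 and Epcam had log2 fold changes of -1.54, -2.62 and -0.77, did not pass and overlapped between the groups. Control replicate 1 was the highest library for each, with 5.55, 39.2 and 6.66 CPM, against 1.79, 3.23 and 1.79 CPM in control replicate 2. The deletion libraries had 0.714 and 1.80 CPM of Krt7, 2.91 and 3.96 CPM of Krt19, and 2.03 and 2.93 CPM of Epcam. Sinusoidal endothelium summed to 145 and 156 CPM in the deletion libraries and to 172 and 200 CPM in the controls, and stellate cells to 253 and 237 CPM in the deletion libraries and to 284 and 247 CPM in the controls. Their part in the proteasome values was not tested. In deletion replicates 1 and 2, Psmb9 stood at 57.4 and 56.5 CPM, Psmb8 at 61.6 and 66.3 CPM, and Psmb10 at 70.1 and 76.7 CPM. The same libraries had 0 and 90.3 CPM of Y-linked genes and 527 and 200.5 CPM of Xist. The part of sex make-up in the immunosubunit values was not tested, and it cannot be told apart fully from genotype.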

How the data were processed

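Raw counts per Ensembl gene were deposited by the authors for 4 QuantSeq 3' mRNA libraries, single-end reads of 75 bp. Alignment used Bowtie2, with mm10 and GRCm38 as builds, per the labels' protocols and the submitters' processing notes; for counting, no program, strand setting or annotation is named in the labels. Symbols were matched by Ensembl ID for 52029 of 56953 IDs, and the unmatched IDs held 0.188% to 0.233% of counts. Genes were filtered with filterByExpr, scaled by TMM and tested with edgeR 4.0.16 in R 4.3.3 (quasi-likelihood F test, two-sided, Benjamini-Hochberg over 14600 genes, called at adjusted p under 0.05). Totals of 16270424 to 17800138 counts put the floor of 3 counts at 0.169 to 0.184 CPM, which like the intervals of the pair shares covers counting error only. The intervals of log2 fold changes come from the edgeR fit and include the spread between libraries. DESeq2 1.42.0, limma-voom 3.58.1, other scaling, no filter, a replicate block, a covariate for male RNA and leaving out each library were alternatives.

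Named genes were the inducible members, their counterparts, called members, the 5 highest and the 5 lowest members, those under the filter, Ube2n and the called genes of both outside lists; others named were chosen after their values were seen. Members and lists were chosen with earlier results of these data known. The edgeR fit was also run on simulated counts with the same dispersion for every gene and no sex difference, a setting unlike these libraries. No result here rests on that run. Protein sequences were not used here, and 1 gene of the antigen processing list is not reported here.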

Additional observations from a re-analysis of the deposited data

How the results depend on the processing

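With library sizes alone, which moved the median of all genes by 0.29 on the log2 scale, 1764 genes were called in place of 959, among them 8 members, 5 inducible members, 2 constitutive members and 10 genes of antigen processing and interferon control; the inducible median was 1.17 and the constitutive median 0.31. The signs of Psmb6 (0.19), Psmb7 (0.14), Psme3 (0.28), Psmd6 (0.0225), Psmd12 (0.14) and Psmg2 (0.14) turned under that scaling, and that of Psme3 also without deletion replicate 2 (0.15) and without control replicate 2 (0.11), its range with 1 library left out being -0.21 to 0.15. Without the filter on low counts 2768 genes were called, with 6 members, 1 constitutive member, 1 gene of the proteasome pathway and 8 genes of antigen processing. DESeq2 called 1567 genes, with 5 members, 1 constitutive member and 8 genes of antigen processing. With a covariate for male RNA 65 genes were called, with 0 members, 0 inducible members and 0 genes of antigen processing, and the inducible median was 1.04. Leaving out 1 library at a time gave 343 to 2081 genes, 1 to 4 members, 1 to 3 inducible members, 0 to 1 constitutive members and 2 to 7 genes of antigen processing, with a constitutive median of -0.0118 to 0.0912. The pair ratios ranged from 2.00 to 2.10 for Psmb9 over Psmb6, 1.36 to 2.00 for Psmb8 over Psmb5 and 0.87 to 1.19 for Psmb10 over Psmb7. The cause of these shifts was not tested.

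The labels do not say that equal replicate numbers mark a pairing, and the deviations of same-numbered libraries correlated at -0.132. With the replicate block 390 genes were called, with 2 members, Psmb8 and Psmb9, and 2 genes of antigen processing and interferon control. With 2 libraries a group, changes smaller than the intervals given could not be detected. The intervals are not adjusted for the number of genes, and Psmd8, Psme1, Psme2, Psmd10 and Psmd9, whose intervals excluded no change, did not pass.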
